A study of Mus musculus with 5 samples.

Results

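Transcripts for the folding and degradation of proteins inside mitochondria were followed in erythroblasts, nucleated cells on the way to red cells, from the marrow of C57BL/6J mice. The 10 genes were chosen by name as mitochondrial chaperones, their partners and mitochondrial proteases (Hspa9, Dnaja3, Grpel1, Hspd1, Hspe1, Trap1, Lonp1, Clpp, Clpx and Afg3l2), and all 10 were among the 10076 genes tested. The choice of these genes and of the lists below was made with earlier results of these data known. Their counts beside the shares over all genes are thus a description and not a test. The study hybridised total RNA to 5 Illumina bead arrays (2 with the label Flvcr deleted, 3 with the label wild type), and its title concerns heme and GATA1 in erythroid differentiation. Flvcr, now Flvcr1, encodes a protein that exports heme from cells, and the comparison asks which transcripts differ in erythroid cells when it is deleted. The deleted allele, the means and time of its deletion, the age of the mice and the isolation of the erythroblasts are not stated in the labels used here. Nothing in the labels says that replicates came from separate mice. The p-values thus set each difference only against scatter among these samples, pooled in part over genes, and that scatter may be technical.

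Proteins made in the cytosol enter mitochondria unfolded. The chaperone HSPA9, or mortalin, pulls them in and folds them with its J-protein DNAJA3 and its nucleotide exchange factor GRPEL1, and the chaperonin HSPD1 encloses a folding protein in a chamber that HSPE1 caps. LONP1 and the complex of the peptidase CLPP with the unfoldase CLPX degrade damaged or surplus proteins of the matrix, and AFG3L2 does so at the inner membrane. In erythroblasts the initial and the final steps of heme synthesis take place in the matrix, and CLPX acts on the initial enzyme, ALAS, which it helps to take up its cofactor and, with CLPP, degrades.

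Values are log2 signals as deposited, and a probe was taken as above background when it lay over a floor of 6.83. Between 35.9% and 36.0% of all probes did so on each array, a share made nearly equal by the distribution that all arrays have in common. Across probes, r was 0.989 to 0.992 within a group and 0.948 to 0.954 between groups. The Flvcr1 probe read 9.88 and 9.75 in the Flvcr-deleted arrays, against 8.16, 8.32 and 8.25 in the wild-type arrays, so it was higher where the gene is labelled deleted. Where this probe lies relative to the deleted part is not known here, so it does not test the labels, on which every direction below rests. The 7 erythroblast markers tested were all above the floor on all 5 arrays. Of the 7, 5 were lower in the Flvcr-deleted arrays (Alas2, Epor, Klf1, Gata1 and Tfrc) and none higher, where 17.5% of all genes tested were lower. Hba-a1 (log2 difference -0.11) and Slc4a1 (0.029) did not pass the test given below. The log2 of the summed signal of all 7 was 16.22 to 16.29 in the Flvcr-deleted arrays, against 16.58 to 16.61 in the wild-type arrays.

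In the Flvcr-deleted arrays 7 of the 10 genes rose and 1 fell, while 2 did not pass (limma, adjusted p under 0.05 over all genes tested). Over all genes tested, 39.3% passed in either direction, 21.8% as higher and 17.5% as lower. That background includes dimmer genes, while the 10 genes were above the floor on all 5 arrays. When only the 6900 genes above the floor on all 5 arrays were tested, 52.2% passed, 1966 as higher and 1635 as lower. The genes that rose were Hspa9, Hspd1, Hspe1, Lonp1, Dnaja3, Clpp and Trap1, the gene that fell was Afg3l2, and Clpx and Grpel1 did not pass. The median log2 difference of the 10 genes was 0.98, from -0.32 to 1.67, against a median of 0.0099 over all genes tested. In 8 of the 10 genes every Flvcr-deleted array lay above every wild-type array, which held for 32.3% of all genes tested, and in 1 every Flvcr-deleted array lay below, which held for 26.8%. A rise of at least 1 on the log2 scale that also passed the test was seen in 5 of the 10 genes and in 4.64% of all genes. Folds are ratios of deposited signals, which may still hold background, and levels of different probes were not set against each other. Fewer cells of a type and less RNA per cell cannot be told apart in such samples.

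**Figure D1:**
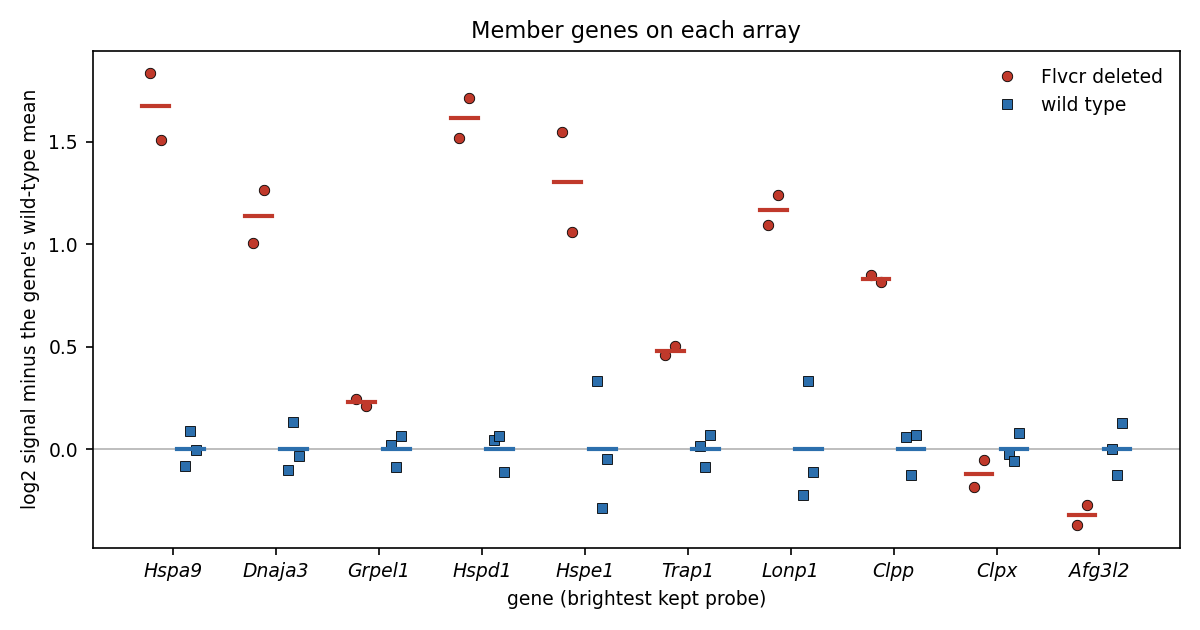
Log2 signal of each gene on each array (y axis), minus the mean of that gene's wild-type arrays, for the brightest probe of each of the 10 genes (x axis, chaperones left, proteases right). Red circles are the 2 Flvcr-deleted arrays, blue squares the 3 wild-type arrays, and bars the group means. The red circles lie above all blue squares in 8 genes and below them in Afg3l2. In Clpx the higher red circle is level with the lowest blue square.

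Hspa9 gave the largest difference of the group. It read 13.46 and 13.14 in the Flvcr-deleted arrays, against 11.54, 11.72 and 11.62 in the wild-type arrays. The lower Flvcr-deleted array thus stood more than 1 log2 unit above the highest wild-type array. Group means were 13.30 ± 0.23 in the Flvcr-deleted arrays (SD, n = 2) and 11.63 ± 0.088 in the wild-type arrays (SD, n = 3). The rise of 1.67 on the log2 scale (SE 0.12), 3.19-fold, ranked 74 among the 10076 genes (limma, adjusted p = 2.07e-05). A dimmer Hspa9 probe read 11.99 and 11.95 in the Flvcr-deleted arrays and 10.03, 10.28 and 10.01 in the wild-type arrays. That probe differed by 1.87 (SE 0.11; limma over all probes kept, adjusted p = 1.15e-05), so both probes gave rises of similar size.

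The partners of HSPA9 did not all rise with it. Dnaja3, the J-protein that hands substrates to HSPA9, read 11.15 and 11.41 in the Flvcr-deleted arrays, against 10.05, 10.28 and 10.11 in the wild-type arrays. The groups did not overlap, and the log2 difference was 1.14, or 2.20-fold (SE 0.12 on the log2 scale; limma, adjusted p = 1.18e-04). This rests on the brightest of 3 Dnaja3 probes. A dimmer one, annotated to another transcript record, read 6.93 and 6.91 in the Flvcr-deleted arrays and 7.11, 6.99 and 7.19 in the wild-type arrays, just over the floor, and differed by -0.18 (adjusted p = 0.226). The remaining probe was not above the floor on any array. With the mean of the kept probes the Dnaja3 difference was 0.48 and still passed (adjusted p = 0.00232).

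Grpel1, the nucleotide exchange factor, read 10.49 and 10.46 in the Flvcr-deleted arrays, against 10.27, 10.16 and 10.31 in the wild-type arrays. The groups did not overlap, yet the log2 difference of 0.23 (95% interval 0.0060 to 0.45) did not pass (limma, adjusted p = 0.0995). Its dimmer probe read 7.06 and 7.16 in the Flvcr-deleted arrays, against 7.17, 6.98 and 7.02 in the wild-type arrays, and the groups overlapped there (0.055, adjusted p = 0.745). The interval of the brighter probe lay below that of Hspa9, 1.39 to 1.95, and the difference between them was not tested.

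Both subunits of the chaperonin rose. Hspd1, the chamber subunit, read 12.00 and 12.20 in the Flvcr-deleted arrays, against 10.53, 10.55 and 10.37 in the wild-type arrays. Both groups were tight, and the gap between them was many times their spread. Group means were 12.10 ± 0.14 in the Flvcr-deleted arrays (SD, n = 2) and 10.48 ± 0.096 in the wild-type arrays (SD, n = 3). They differed by 1.62 on the log2 scale (SE 0.11), 3.07-fold, a rise that ranked 86 among all genes (limma, adjusted p = 1.56e-05). Its dimmer probe differed by 1.21 (SE 0.19, adjusted p = 0.00129), with 9.71 and 9.29 in the Flvcr-deleted arrays and 7.98, 8.65 and 8.25 in the wild-type arrays. Hspe1, the cap, read 10.33 and 9.85 in the Flvcr-deleted arrays, against 9.12, 8.50 and 8.74 in the wild-type arrays. Its arrays scattered more than those of Hspd1 in both groups, without overlap. They differed by 1.31 on the log2 scale (SE 0.20), 2.47-fold (limma, adjusted p = 7.90e-04).

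The genes of both chaperonin subunits lie head to head, so the DNA that precedes Hspe1 also precedes a start of Hspd1. In the RefSeq promoter windows (GRCm38.p6, 250 bases before to 50 after a start), 285 bases of the Hspe1 window lie in an Hspd1 window on the other strand, and the annotated starts are 216 bases apart. A further Hspd1 start has a window that shares 4 bases with that of Hspe1. The Hspe1 window (chr1:55087898-55088197, + strand) is printed because it covers 285 bases of an Hspd1 window and both genes rose, with every match to the motifs searched in capitals. Which Hspd1 start is used in these cells is not known here.

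Hspe1: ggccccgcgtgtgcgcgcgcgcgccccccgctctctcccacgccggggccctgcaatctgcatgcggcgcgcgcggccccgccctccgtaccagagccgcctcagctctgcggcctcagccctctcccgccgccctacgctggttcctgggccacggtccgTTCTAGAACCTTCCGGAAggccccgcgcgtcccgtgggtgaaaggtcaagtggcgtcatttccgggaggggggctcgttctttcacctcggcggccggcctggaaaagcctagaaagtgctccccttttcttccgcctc

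The capitals are 3 overlapping matches to paired units of the heat shock element, 2 of TTCNNGAA (from positions -89 and -79, with the start as 0) and 1 of GAANNTTC (from position -84). Heat shock factor HSF1 is known to bind arrays of such units. TTCNNGAA was present in 8.52% and GAANNTTC in 7.86% of all 32851 windows, both being the same on either strand. Of the 8 genes whose windows were used (9 windows, since Hspd1 has 2), GAANNTTC was found for Hspd1 and Hspe1, and TTCNNGAA for Hspd1, Hspe1 and Clpp. Hspd1 and Hspe1 hold the same stretch, so they count as a single occurrence. The CEBP-ATF element TGATGNAA had no match in the 9 windows and was present in 3.97% of all windows, a share at which its absence from 9 windows says little. The 9 windows were richer in G and C than all windows (median 61.0% against 52.7%), which the shares given here do not allow for. All matches are matches of letters and not sites shown to be bound.

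Trap1, an ATP-driven chaperone of the matrix, had the smallest rise among the genes that passed. It read 9.69 and 9.73 in the Flvcr-deleted arrays, against 9.25, 9.15 and 9.30 in the wild-type arrays. The arrays of each group lay close together and the groups were apart. They differed by 0.48 on the log2 scale (SE 0.098), 1.40-fold (limma, adjusted p = 0.00406), and 15.9% of all genes had a difference at least as high.

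**Figure D2:**
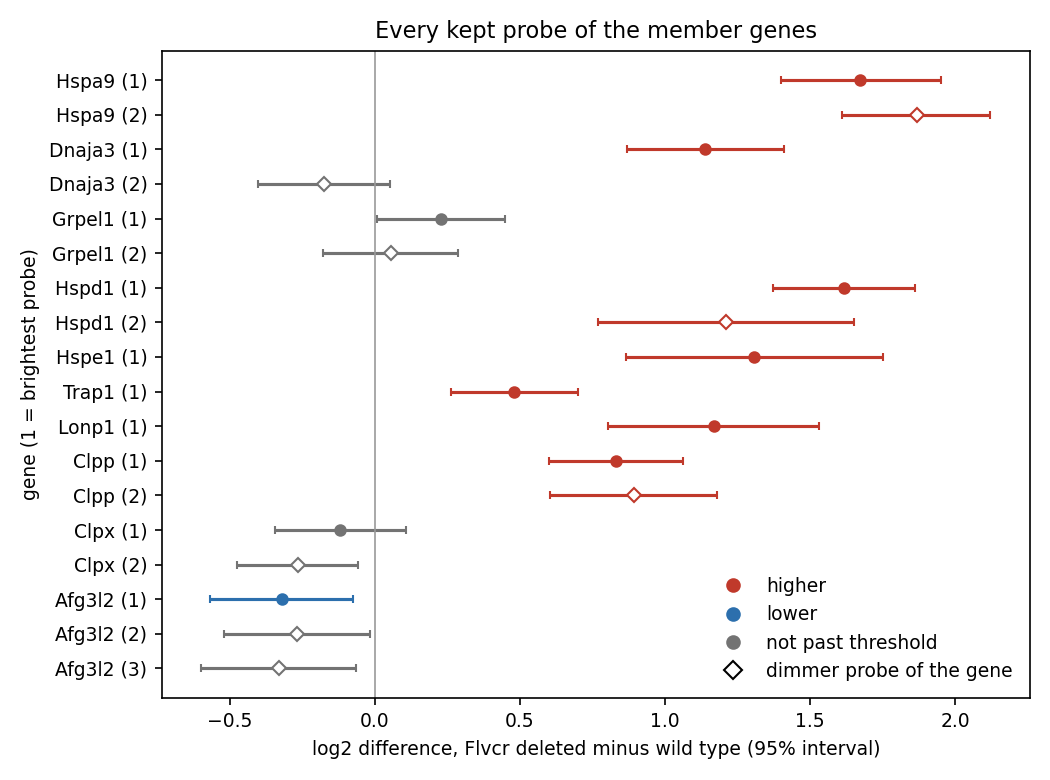
Log2 difference, Flvcr deleted minus wild type (x axis), with its 95% interval for the 18 kept probes of the 10 genes (y axis; probe 1 is the brightest of its gene), from limma over all probes kept. Filled circles are the brightest probes, open diamonds the dimmer ones, and colours give the call: 10 probes were higher and 1 was lower, while 7 did not pass, where 35.3% of all probes kept passed.

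Among the proteases, the soluble matrix enzymes Lonp1 and Clpp rose. Lonp1 read 9.64 and 9.78 in the Flvcr-deleted arrays, against 8.32, 8.88 and 8.43 in the wild-type arrays. Wild-type replicate 2 stood above the other wild-type arrays and still below both Flvcr-deleted arrays. They differed by 1.17 on the log2 scale (SE 0.16), 2.25-fold (limma, adjusted p = 4.98e-04). Clpp read 10.59 and 10.55 in the Flvcr-deleted arrays, against 9.80, 9.61 and 9.81 in the wild-type arrays. The spread within each group was small beside the log2 difference of 0.83, or 1.78-fold (SE 0.10 on the log2 scale; limma, adjusted p = 2.80e-04). A dimmer Clpp probe differed by 0.89 (SE 0.13, adjusted p = 6.40e-04).

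Clpx, the unfoldase that feeds CLPP, did not rise with it. Its brightest probe read 8.10 and 8.23 in the Flvcr-deleted arrays, against 8.26, 8.23 and 8.36 in the wild-type arrays. The groups overlapped only in that Flvcr-deleted replicate 2 (8.2298) was level with wild-type replicate 2 (8.2296), the lowest wild-type array. The log2 difference was -0.12 (95% interval -0.35 to 0.11; limma, adjusted p = 0.412). For Clpp that interval was 0.60 to 1.07, and the difference between the changes of both genes was not tested. The dimmer Clpx probe read 7.77 and 7.77 in the Flvcr-deleted arrays, against 8.07, 7.99 and 8.04 in the wild-type arrays. Here the Flvcr-deleted arrays lay below all wild-type arrays, but the difference of -0.27 (SE 0.092) did not pass (adjusted p = 0.0519).

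The windows of Clpp (chr17:56990014-56990313, + strand) and Clpx (chr9:65294010-65294309, + strand) are printed as those of partners of which 1 rose and 1 did not pass, and that of Lonp1 (chr17:56626854-56627153, - strand) as the only other protease that rose, again with matches in capitals.

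Clpp: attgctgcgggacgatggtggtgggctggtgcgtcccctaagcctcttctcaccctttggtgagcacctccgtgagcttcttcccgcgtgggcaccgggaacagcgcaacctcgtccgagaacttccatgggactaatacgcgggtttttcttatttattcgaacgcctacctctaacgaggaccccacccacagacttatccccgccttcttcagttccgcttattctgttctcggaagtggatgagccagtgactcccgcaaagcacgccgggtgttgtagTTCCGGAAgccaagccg
Clpx: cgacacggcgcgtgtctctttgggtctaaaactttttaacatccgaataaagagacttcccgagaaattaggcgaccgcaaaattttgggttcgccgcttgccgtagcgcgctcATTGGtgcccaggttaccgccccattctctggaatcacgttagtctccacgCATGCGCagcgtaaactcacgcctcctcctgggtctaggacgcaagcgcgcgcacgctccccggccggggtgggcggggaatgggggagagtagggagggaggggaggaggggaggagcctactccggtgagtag
Lonp1: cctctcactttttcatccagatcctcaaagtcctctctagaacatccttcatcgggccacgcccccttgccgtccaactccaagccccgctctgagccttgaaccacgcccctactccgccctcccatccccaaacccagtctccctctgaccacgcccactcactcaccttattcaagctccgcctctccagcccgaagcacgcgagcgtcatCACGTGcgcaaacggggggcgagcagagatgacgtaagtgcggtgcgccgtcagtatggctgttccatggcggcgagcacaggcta

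The capitals in the Clpp window are a TTCNNGAA match, which lies after the start (from position 33). In Clpx they are a CCAAT box (CCAAT, here on the other strand; 37.4% of all windows) and the core of an NRF1 site (GCGCATG, also on the other strand; 3.91% of all windows). Grpel1 was the only other of the 8 genes with the NRF1 core. The Lonp1 window holds an E box (CACGTG, 7.15% of all windows), the motif read by MYC and its relatives, and the further Hspd1 window holds another. Windows of Hspa9 and Afg3l2 were not used here.

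ALAS, the enzyme on which CLPX acts, has a housekeeping gene, Alas1, and an erythroid gene, Alas2. Alas1 read 9.73 and 9.31 in the Flvcr-deleted arrays, against 10.31, 10.68 and 10.20 in the wild-type arrays (log2 difference -0.88, SE 0.17; limma, adjusted p = 0.00322). Alas2 read 13.24 and 13.43 in the Flvcr-deleted arrays, against 14.33, 14.18 and 14.25 in the wild-type arrays (-0.91, SE 0.105; adjusted p = 1.89e-04). Both ALAS transcripts thus fell, while Clpp rose and Clpx did not pass.

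Afg3l2, a subunit of the AAA protease of the inner membrane that faces the matrix, was the only one of the 10 genes to fall. It read 8.20 and 8.30 in the Flvcr-deleted arrays, against 8.57, 8.45 and 8.70 in the wild-type arrays. The groups were apart by less than the spread of the wild-type arrays. The log2 difference was -0.32 (SE 0.11), or 1.25-fold lower (limma, adjusted p = 0.0447). The call was lost without either Flvcr-deleted array, without wild-type replicate 1 or 3, with replicate number as a block, and with normexp background correction or a mean-variance trend, with adjusted p up to 0.239. A dimmer probe differed by -0.27 (adjusted p = 0.0963). The remaining one was not above the floor on either Flvcr-deleted array and did not pass (adjusted p = 0.0569), so 1 of 3 probes passed.

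In a wider list of 26 genes of mitochondrial protein processing and quality control, 22 were tested. Of these 9 rose and 1 fell, 12 did not pass, and the median difference was 0.29. Over all genes tested, 21.8% were higher and 17.5% lower, so 39.3% passed, and the median difference was 0.0099. The list's total of calls lay near that 39.3%. Its rises alone were over the share of all genes and its falls under it, which was not tested. Without Flvcr-deleted replicate 1 the count of rises was 4, and without Flvcr-deleted replicate 2 no gene was lower. The largest rise was that of Ppif, cyclophilin D, a prolyl isomerase that regulates the permeability transition pore. Ppif read 11.87 and 11.50 in the Flvcr-deleted arrays, against 9.57, 9.78 and 9.66 in the wild-type arrays, which is 2.02 on the log2 scale (SE 0.13), 4.05-fold (limma, adjusted p = 1.27e-05), more than any of the 10 genes.

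The other rises had differing roles. Phb2, a prohibitin of the ring that holds the inner membrane AAA protease, rose by 0.91 (SE 0.12), and Parl, a rhomboid protease of that membrane, by 0.69 (SE 0.11). Mipep and Pitrm1, peptidases that trim and clear the targeting peptides of imported proteins, rose by 0.77 (SE 0.10) and 0.48 (SE 0.11). Dnajc15, a J-protein of the import motor, rose by 0.71 (SE 0.22), and Txn2, the mitochondrial thioredoxin, by 0.41 (SE 0.11). Dnlz, which keeps HSPA9 soluble, and Pmpcb, the catalytic subunit of the processing peptidase, complete the 9, with 0.35 (adjusted p = 0.0318) and 0.33 (adjusted p = 0.0324). Calls for Dnajc15, Pitrm1, Txn2, Dnlz and Pmpcb were lost without Flvcr-deleted replicate 1 (adjusted p = 0.119, 0.0706, 0.0782, 0.118 and 0.103). Dnajc15 was also lost without a filter on low values (adjusted p = 0.0741), and its difference was 0.46 without wild-type replicate 2. The Txn2 call was also lost without Flvcr-deleted replicate 2 (adjusted p = 0.0927) and without wild-type replicate 1 (0.0728) or 2 (0.055). Dnlz and Pmpcb each lost their call in 6 of 15 alternatives. These were centred arrays (adjusted p = 0.0593 and 0.065), leaving out either Flvcr-deleted array or wild-type replicate 2 (both genes), wild-type replicate 1 (Dnlz) or 3 (Pmpcb), a mean-variance trend (Dnlz, 0.0665) and the replicate block (Pmpcb, 0.0641), with adjusted p up to 0.136 for Dnlz and 0.178 for Pmpcb.

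Spg7, or paraplegin, forms the AAA protease together with AFG3L2 and was the gene that fell. It read 8.82 and 8.57 in the Flvcr-deleted arrays, against 9.16, 9.32 and 9.15 in the wild-type arrays. The groups did not overlap, with a log2 difference of -0.51 (SE 0.12; limma, adjusted p = 0.00671), and the call was lost without Flvcr-deleted replicate 2 (-0.39, adjusted p = 0.0751). A dimmer Spg7 probe differed by -0.16 (adjusted p = 0.264), and the mean of the kept probes by -0.34 (adjusted p = 0.0196). The other subunit gene, Afg3l1, differed by 0.35 (adjusted p = 0.171) and passed with the replicate block (0.44, adjusted p = 0.0105). None of its dimmer probes passed, and the mean of its kept probes differed by 0.24 (adjusted p = 0.088). Yme1l1, the AAA protease that faces the intermembrane space, differed by -0.073 (adjusted p = 0.608). Its dimmer probe went the other way (0.13, limma over all probes kept, adjusted p = 0.485), and the mean of its kept probes differed by 0.027 (adjusted p = 0.859).

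**Figure D3:**
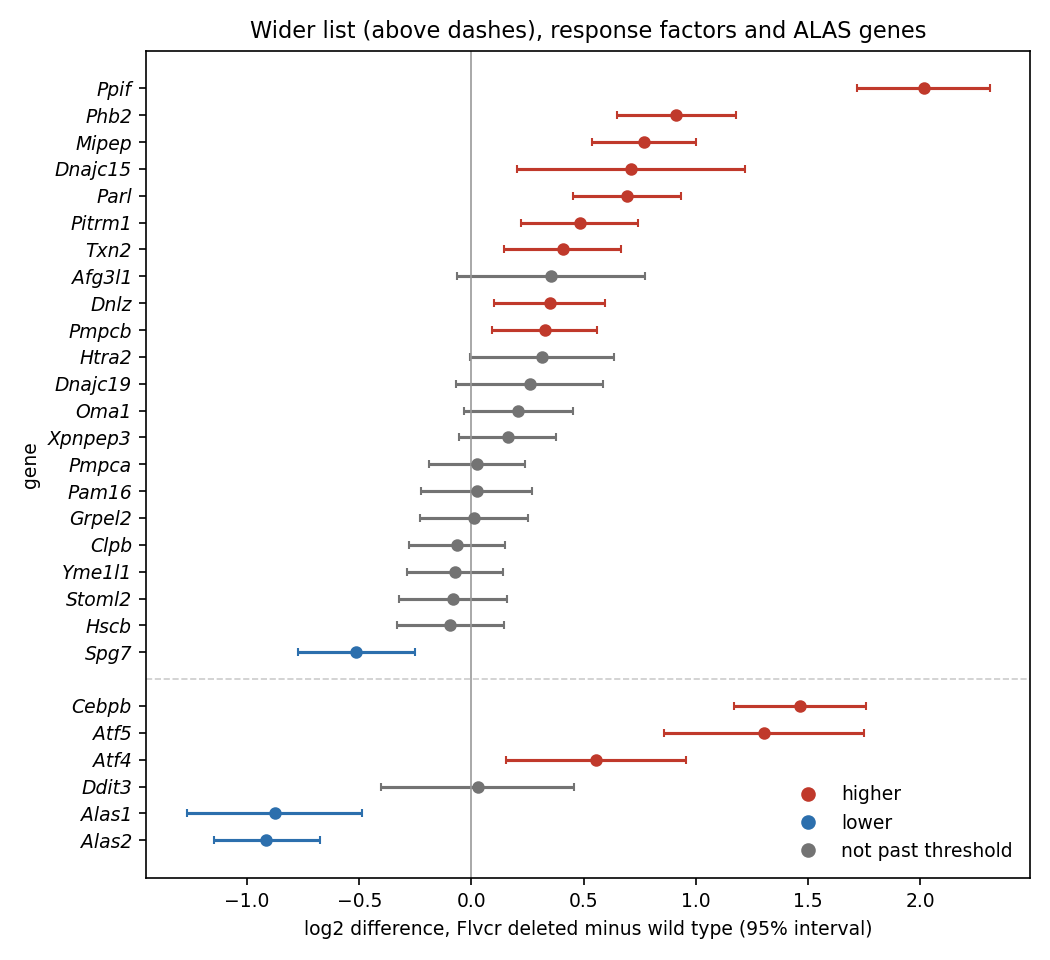
Log2 difference, Flvcr deleted minus wild type (x axis), with its 95% interval for the 22 tested genes of the wider list (above the dashed line) and, below it, 4 transcription factors and the 2 ALAS genes (y axis). Red marks genes that rose, blue genes that fell and grey genes not past the threshold. Ppif lies farthest right at 2.02, and Spg7 is the only gene of the wider list in blue.

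Transcription factors that link mitochondrial protein stress to gene expression in mammals were set beside these genes. Of 4 such factors 3 rose, where 21.8% of all genes did, and 1966 of the 6900 genes above the floor on all 5 arrays. Of the 3 calls 1, that of Atf4, was lost in 5 of 15 alternatives. Atf5 read 10.53 and 11.06 in the Flvcr-deleted arrays, against 9.26, 9.40 and 9.82 in the wild-type arrays (log2 difference 1.30, SE 0.20; limma, adjusted p = 8.05e-04). Cebpb read 10.02 and 10.21 in the Flvcr-deleted arrays, against 8.44, 8.77 and 8.75 in the wild-type arrays (1.47, SE 0.13; adjusted p = 4.91e-05). Neither gene's groups overlapped. Atf4 passed by little (0.55, SE 0.18, adjusted p = 0.0344), and the call was lost without either Flvcr-deleted array or wild-type replicate 3 (adjusted p up to 0.0954), without a filter on low values (0.0695) and with arrays centred on the median of the genes tested (0.50, adjusted p = 0.0513). A dimmer Atf4 probe differed by 0.31 and did not pass (limma over all probes kept, adjusted p = 0.0902). Ddit3, which encodes CHOP, read 10.10 and 9.93 in the Flvcr-deleted arrays, against 9.76, 9.80 and 10.41 in the wild-type arrays, with overlap (0.027, 95% interval -0.40 to 0.46; adjusted p = 0.937).

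**Figure D4:**
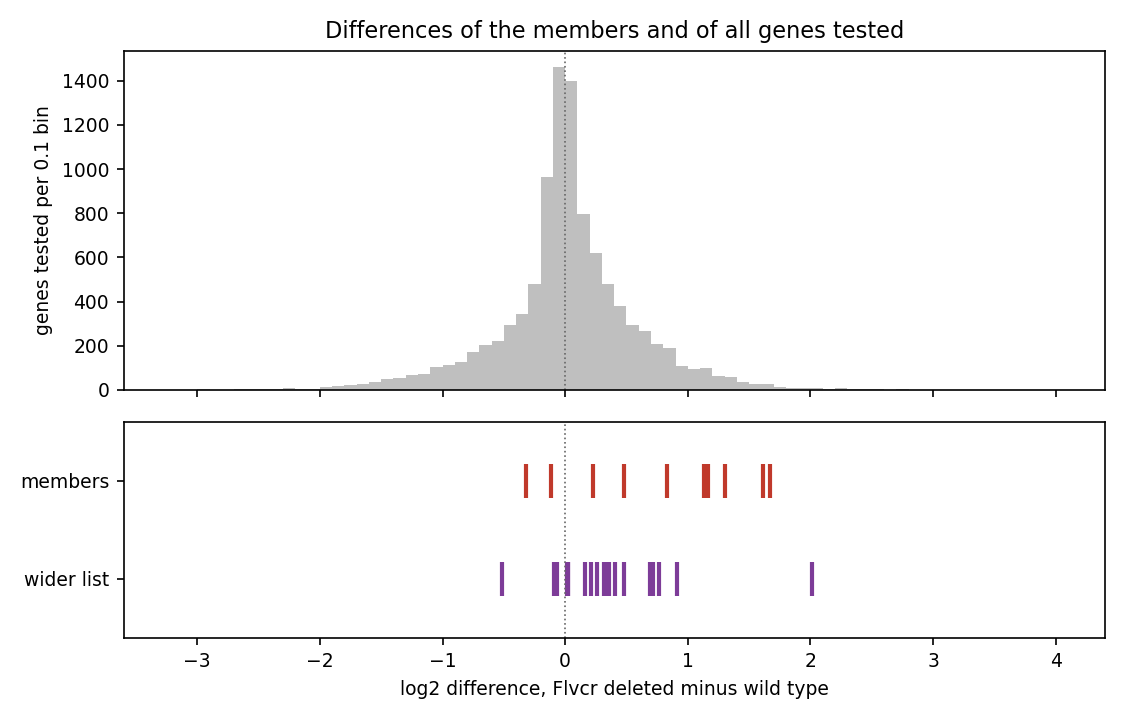
Top, number of genes tested (y axis) per 0.1 bin of log2 difference, Flvcr deleted minus wild type (x axis). Bottom, each of the 10 genes (red) and of the 22 tested genes of the wider list (purple) as a tick on the same axis, with 0 dotted. The 10 genes reach from -0.32 to 1.67 around a median of 0.98, and the wider list has its median at 0.29.

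The mean profile of the 10 genes, each centred on its own mean over the 5 arrays, was 0.48 and 0.48 in the Flvcr-deleted arrays, against -0.32, -0.33 and -0.31 in the wild-type arrays. The genes with the closest centred profiles were Ufc1, the conjugating enzyme of the modifier UFM1 (root mean square difference 0.022 over 5 arrays), Prickle1 (0.023) and Slc25a3, the mitochondrial phosphate carrier (0.024). With 5 arrays in 2 groups, likeness over the arrays holds little beyond a similar difference between the groups.

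Markers of other marrow cells moved in the same comparison, in which 17.5% of all genes tested were lower. Of 10 neutrophil markers 4 were lower (Elane, Mpo, Prtn3 and Ctsg) and none higher. For S100a8, S100a9, Ngp, Camp, Ltf and Lcn2 the groups overlapped and the difference did not pass. The log2 of the summed signal of all 10 ran from 12.52 to 13.33 in the Flvcr-deleted arrays, against 14.92 to 15.13 in the wild-type arrays. Of 6 tested markers of mast cells, basophils and eosinophils 5 were lower, of which Mcpt8 was not above the floor in either Flvcr-deleted array, with log2 sums of 10.04 to 10.06 in the Flvcr-deleted arrays, against 12.45 to 13.03 in the wild-type arrays. Of 3 tested B cell markers 2 were lower, and none of the 3 was above the floor in the Flvcr-deleted arrays. No macrophage marker of 6 tested passed, with log2 sums of 10.09 to 10.74 in the Flvcr-deleted arrays, against 10.38 to 11.35 in the wild-type arrays. Among 2 tested megakaryocyte and 2 tested T and NK cell markers, 1 of each was lower. The part of these cells in the differences given here was not tested. The neutrophil gene Elane read 10.40 and 8.34 in the Flvcr-deleted arrays, against 12.08, 12.34 and 11.68 in the wild-type arrays. Both Flvcr-deleted arrays lay closer together for Prg2 (8.78 and 8.86) and Prss34 (7.03 and 6.99), which are in the list for mast cells, basophils and eosinophils.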

How the data were processed

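Total RNA of 5 erythroblast samples was labelled with biotin and measured on Illumina bead arrays, and samples were grouped by title and genotype. The authors deposited a value for each of 45281 probes per array, used here as log2 signals. Their log base, software and background correction are not given in sources used here. From the values, all arrays share 1 distribution from 6.35 to 15.06. A table of signals before normalization, whose 10 value columns match no sample's labels, was not used, so limma ran on the deposited values in place of the planned neqc.

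The platform annotation gave 34885 probes 1 gene symbol, 18 several and 10378 none, and only the 34885 were named. The background floor, 6.83, adds 1.64 times the spread below the mode (0.0824) to the mode of all values (6.70). Probes above it on at least 2 arrays were kept (17729), and the brightest kept probe stood for each of 10076 genes. All 10 genes of the group passed on all 5 arrays. Differences, Flvcr deleted minus wild type, were fitted to all 5 arrays by limma 3.58.1 (lmFit, then eBayes; R 4.3.3; two-sided; 3 residual and 5.64 prior degrees of freedom), adjusted with Benjamini-Hochberg over all genes tested and called under 0.05. Single probes were tested over all probes kept. The number of arrays limits the precision.

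The members and lists were chosen with earlier results of these data known. Named are Flvcr1, all 10 members, Alas1, Alas2, Atf4, Atf5, Ddit3, Cebpb, the 8 called genes of the wider list with the largest difference, the 3 closest profiles and the markers. Dnlz, Pmpcb, Afg3l1 and Yme1l1 were named after their values were seen. Phb, Immp1l, Immp2l and Lactb of the wider list were not tested. Promoters are RefSeq windows, GRCm38.p6, for 8 of the 10 genes. The fit was tested on simulated data. Alternatives were other probe summaries, filters, background correction, scaling, variance priors, a replicate block and leaving out each array.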

Additional observations from a re-analysis of the deposited data

How the results depend on the processing

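All 15 alternatives gave 7 of the 10 genes as higher, and none turned the direction of any of the 10. The lowest and highest log2 differences over the alternatives were 1.51 and 1.83 for Hspa9, 1.41 and 1.71 for Hspd1, 1.06 and 1.55 for Hspe1, 1.06 and 1.33 for Lonp1, 0.77 and 0.87 for Clpp, 0.43 and 0.52 for Trap1 (adjusted p up to 0.0349), and 0.48 and 1.27 for Dnaja3, the lowest with the mean of its probes. The count of genes that fell, 1 as reported, was 0 with normexp background correction (adjusted p = 0.057 for Afg3l2), with a mean-variance trend (0.0884) and with the replicate block (0.114), and between 0 and 1 when an array was left out. In the wider list the count of rises, 9 as reported, was between 4 and 8 and that of falls between 0 and 1 when an array was left out. Fewer arrays lower the number of calls over all genes too, to 2992 of 9492 without Flvcr-deleted replicate 1. No scaling moved the median of all genes by more than 0.1. The arrays share 1 distribution as deposited, so little movement was possible. A shift between groups that was removed before deposit cannot be seen this way. The replicate numbers name samples only: deviations from the group means correlated at -0.033 for number 1 and 0.097 for number 2, and with the replicate block 7 of the 10 genes were higher, 0 lower and 10 of the wider list higher. No signal before normalization and no detection p-value was used, so signal over background is known only through the floor.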
